A study of Mus musculus with 6 samples.

Results

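Transcripts of the Hippo pathway and its co-activators YAP and TAZ were followed in embryonic submandibular glands (eSMGs) through 10 genes, namely the kinases Lats1 and Lats2, the co-activators Yap1 and Wwtr1 (which encodes TAZ), the DNA-binding partners Tead1, Tead2, Tead3 and Tead4, and the target genes Ctgf and Cyr61 (current symbols Ccn2 and Ccn1). They were chosen by gene symbol from the 23260 lines kept for each library, and all 10 were among the 13610 genes that passed the filter on low counts. The glands came from embryonic day 14 embryos of ICR mice and were cultured for 6 h, either without drug (control, 3 libraries) or with 50 µM AMD3100 (3 libraries), a small-molecule antagonist of the chemokine receptor CXCR4. Whole glands, up to 10 in a tube, were extracted together, so that epithelium, mesenchyme, nerves, vessels and any attached tissue shared a library, and fewer cells of a type and less RNA per cell cannot be told apart. The study's methods speak of independent experiments in general, but no source used here says whether these tubes came from separate litters or cultures, and p-values measure the spread between these tubes.

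The Hippo pathway is a kinase cascade that restrains organ growth. LATS kinases phosphorylate YAP and TAZ, which holds these proteins in the cytoplasm or sends them to degradation, whereas unphosphorylated YAP and TAZ enter the nucleus and, bound to TEAD factors, activate genes such as Ctgf and Cyr61. This control acts mostly on protein, so the mRNA level of Yap1 or Wwtr1 does not report its activity, and the readout of activity at the mRNA level is the target genes. In branching organs the pathway is known for coupling cell shape, tension and cell contacts to growth.

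Libraries held between 9051595 and 14393031 counts. Levels are given as TMM-normalized CPM, that is counts scaled to the size of the library, and since 3′ libraries place the reads of a transcript at its end, the levels of different genes were compared without a correction for length. A level of 0 allows up to 3 counts, which corresponded to 0.173 CPM in the deepest library and 0.368 CPM in the shallowest, and these limits and all intervals of shares cover counting error only. On the first principal component of all tested genes, which held 38.2% of the variance, control replicate 3 and AMD3100 replicate 3 lay at 84.8 and 80.8, whereas the other 4 libraries lay between -78.7 and -17.4. On the second, which held 26.3%, control replicate 1 lay at 82.3 and AMD3100 replicate 2 at -87.6, with the other 4 between -16.6 and 25.9. The replicate 3 tubes were rich in skeletal muscle transcripts, with 1030 and 1299 CPM over 6 muscle markers against 112 to 233 CPM in the others. Markers of a gland were present in all libraries. Epcam, an epithelial adhesion molecule, lay between 59.0 and 117 CPM and Pdgfra, a receptor of mesenchymal cells, between 60.9 and 105 CPM.

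Among the 10 genes, Ctgf, which encodes a secreted matrix-associated protein and is a standard readout of YAP and TAZ, differed most clearly between groups. It was 3.58-fold lower in AMD3100-treated eSMGs, from 9.49 ± 4.61 to 2.66 ± 1.16 CPM (mean ± SD, n = 3). Cyr61, its close relative, was low throughout and undetected in 1 treated library. Yap1, Wwtr1, Tead1, Tead3, Tead4 and Lats2 lay within the spread between replicates, Tead2 was lower (113 ± 10.7 against 94.0 ± 10.8 CPM, mean ± SD, n = 3) with groups that just overlapped, and Lats1 was lower on average with a single high control library. The log2 fold change of 9 of the 10 genes was below 0 and that of 1 was above 0, with a median of -0.30, beside 47.8% of all tested genes below 0 and a median of 0.02.

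A gene was called at an unadjusted p below 0.05 and a fold change over 1.5 in either direction, the thresholds in the main text of the study, whose figure legends give a stricter fold change. Of the 13610 genes tested, 228 (1.68%) were called, 174 of them (1.28%) lower in the AMD3100 group, and 1 of the 10 genes, Ctgf, was called. With the replicate number as a block 598 genes (4.39%) were called, and Ctgf was again the 1 member among them. After Benjamini-Hochberg adjustment of the edgeR quasi-likelihood test over all genes, 0 genes (0%) had an adjusted p below 0.05 (228 had an unadjusted p below it), beside 5 with DESeq2, and the adjusted p of Ctgf was 1.0. The 3 values of one group lay wholly apart from the 3 of the other for 1013 genes (7.44%), with 567 (4.17%) lower in the AMD3100 group, and again 1 of the 10 genes, Ctgf, was among them. With such backgrounds, a count of 1 gene does not set the 10 apart from other genes.

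**Figure D1:**
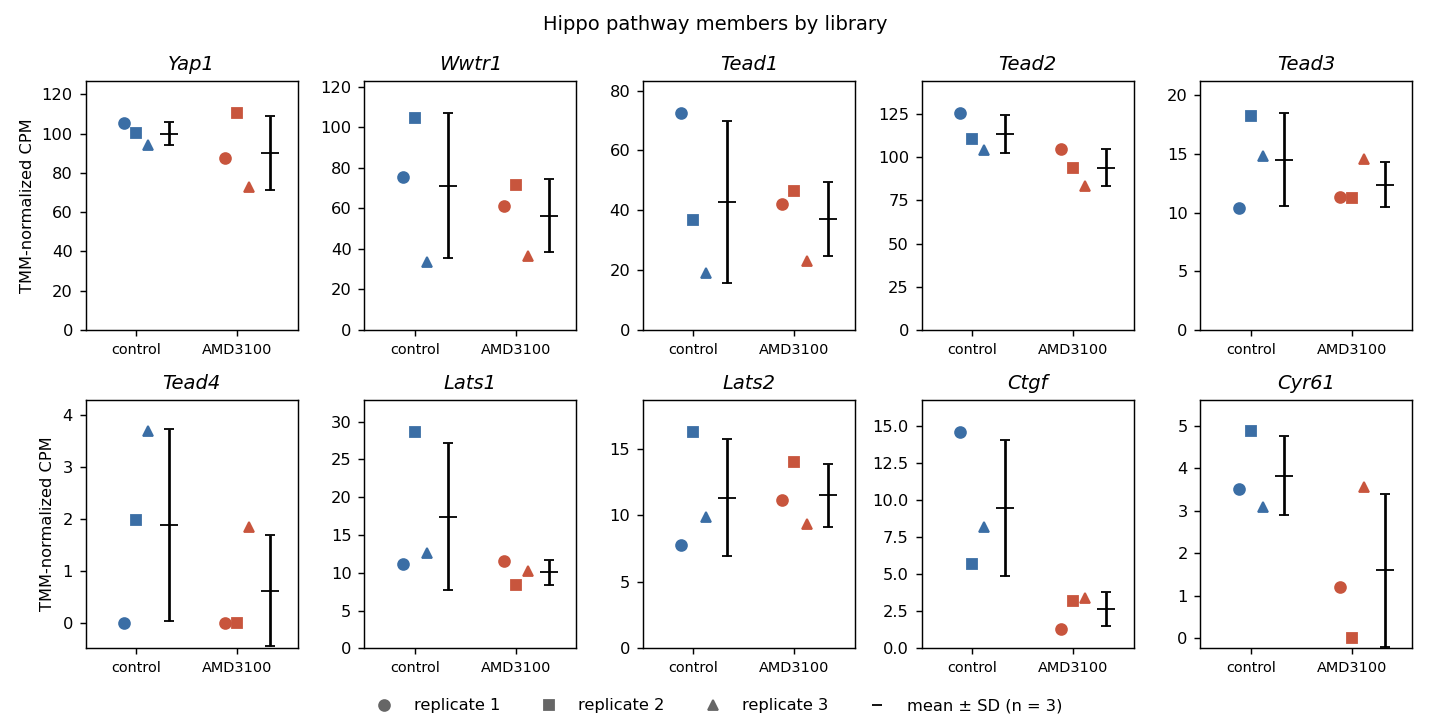
TMM-normalized CPM (vertical axis, linear) of the 10 genes in each of the 3 control (blue) and 3 AMD3100 (red) libraries, with symbols for the replicate number and black bars for mean ± SD. Ctgf is the only gene of the 10 whose groups do not overlap, and Wwtr1 and Tead1 are lowest in the replicate 3 library of each group.

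Ctgf (chr10:24595442-24598683, GRCm38) was measured at 14.6, 5.68 and 8.18 CPM in the control libraries and at 1.32, 3.23 and 3.44 CPM in the AMD3100 libraries, from 167, 78 and 82 against 23, 35 and 28 counts. Every treated library lay below every control library, and control replicate 1 was the highest of all by a wide margin. The log2 fold change was -1.84 ± 0.65 (SE), with a 95% interval from -3.32 to -0.36. The unadjusted edgeR p was 0.0207, and an exact two-sided permutation test of the 3 against 3 values gave p = 0.1, the smallest that this design allows. Without control replicate 1 the log2 fold change was -1.39, and without AMD3100 replicate 1 it was -1.51, and in neither case was the threshold on p met. With the muscle-rich replicate 3 tubes left out it was -2.17 and the gene was still called.

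Endothelial cells, which are a known source of Ctgf, were represented by 5 markers, 4 of which were tested and 0 called, and which summed to 34.0, 23.7 and 28.2 CPM in the control libraries and 19.4, 44.4 and 15.6 CPM in the AMD3100 libraries. Pecam1, an adhesion molecule of endothelium, stood at 13.8, 8.96 and 14.1 CPM in controls and at 1.5, 15.9 and 2.95 CPM in treated libraries. Kdr, the receptor of vascular endothelial growth factor and the most abundant of the 5 over all 6 libraries though below Pecam1 in the controls, stood at 11.7, 8.01 and 7.28 against 10.1, 26.5 and 9.58 CPM. Cdh5, an endothelial cadherin, stood at 3.41, 2.33 and 4.29 against 2.82, 0 and 0.491 CPM, and Emcn, an endothelial sialoprotein, at 4.99, 3.13 and 2.49 against 4.38, 1.94 and 2.46 CPM, while Tek was at 0 in control replicate 1 and AMD3100 replicate 2. Cdh5 and Emcn were thus lower in the treated library of all 3 same-numbered pairs, as Ctgf was, whereas Pecam1 was so in replicates 1 and 3 and Kdr in replicate 1, and the part of vessel content in the Ctgf result was not tested.

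Cyr61 (chr3:145646971-145649985) encodes another secreted matrix protein that YAP and TAZ activate. Its levels were 3.50, 4.88 and 3.09 CPM in the control libraries and 1.21, 0 and 3.56 CPM in the AMD3100 libraries. The groups overlapped, because AMD3100 replicate 3 lay above 2 of the 3 controls, while the 0 in AMD3100 replicate 2 allows a level of up to 0.277 CPM. The log2 fold change was -1.28 ± 1.33 (SE) (exact permutation p = 0.3), and it was -0.68 without AMD3100 replicate 2 and -2.62 without AMD3100 replicate 3. At 0 to 67 counts a library, a difference of the size seen for Ctgf could not be resolved for Cyr61, whose 95% interval ran from -4.30 to 1.74. Within the pair, Cyr61 made up 19.3, 46.2 and 27.4% of the summed Ctgf and Cyr61 counts in controls and 47.7, 0 and 50.9% in treated libraries. These shares scattered more within the AMD3100 group than between groups (exact permutation p = 0.8).

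The 250 bases before the annotated start of Cyr61 are shown with those of Amotl2 and Crim1, 2 further YAP/TAZ targets described below, since each holds 1 copy of the core sequence that TEAD factors bind. The sequences are those of RefSeq on GRCm38.p6, read 5′ to 3′ along the gene, at chr3:145649986-145650235 (minus strand), chr9:102717554-102717803 (plus strand) and chr17:78199998-78200247 (plus strand), and capitals mark the TEAD core, GGAATG or its reverse complement CATTCC. Amotl2 and Crim1 were chosen for display after their values were seen, and they are not typical of the targets that hold the core.
Cyr61: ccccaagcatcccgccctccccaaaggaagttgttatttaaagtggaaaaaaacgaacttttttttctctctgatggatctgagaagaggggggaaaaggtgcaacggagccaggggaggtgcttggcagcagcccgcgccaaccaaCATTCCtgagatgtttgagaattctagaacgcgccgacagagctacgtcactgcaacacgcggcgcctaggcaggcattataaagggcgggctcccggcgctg
Amotl2: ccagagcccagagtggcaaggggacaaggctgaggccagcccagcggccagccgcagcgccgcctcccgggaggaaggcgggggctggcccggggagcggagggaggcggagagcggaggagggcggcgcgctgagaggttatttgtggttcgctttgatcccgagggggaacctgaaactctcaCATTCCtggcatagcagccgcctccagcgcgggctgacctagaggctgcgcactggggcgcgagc
Crim1: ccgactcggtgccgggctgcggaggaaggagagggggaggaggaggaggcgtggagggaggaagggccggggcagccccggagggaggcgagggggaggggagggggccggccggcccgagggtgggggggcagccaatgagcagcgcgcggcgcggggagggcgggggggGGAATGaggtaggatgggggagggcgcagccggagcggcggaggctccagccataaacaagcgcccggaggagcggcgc
The core begins at -103 in Cyr61, at -65 in Amotl2 and at -79 in Crim1, where -1 is the base just before the annotated start. RefSeq promoters from 250 bases before to 50 bases after the start were at hand for 14 of the 21 genes formed by Ctgf, Cyr61 and the target list below, and 6 of these 14 held the core on either strand (Cyr61, Amotl2, Ankrd1, Axl, Crim1 and Ptpn14), beside 14.7% of all 32851 such promoters. Axl and Ptpn14 also held 1 core each, with log2 fold changes of 0.25 and 0.12. Ankrd1 held 2 cores, with a log2 fold change of 0.27. The promoters of Igfbp3 and Gadd45a, the called genes of that list, held 0. The AP-1 site TGANTCA, searched on both strands, was found in 1 of the 14, F3, and in 7.81% of all promoters. The letters alone do not show that a factor binds there.

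LATS1 and LATS2 are the kinases that phosphorylate YAP and TAZ directly. Lats1 (chr10:7681200-7716461) stood at 11.1, 28.6 and 12.6 CPM in the control libraries and at 11.6, 8.39 and 10.2 CPM in the AMD3100 libraries. Control replicate 2 alone was far above the rest, and the other control libraries overlapped the treated ones. The log2 fold change was -0.79 ± 0.46 (SE) (exact permutation p = 0.2), and -0.24 without control replicate 2. Lats2 (chr14:57689662-57746212), which is itself a YAP/TAZ target and part of a negative feedback, stood at 7.79, 16.2 and 9.87 CPM in controls and at 11.1, 14.0 and 9.33 CPM in treated libraries. Its groups overlapped fully, with a log2 fold change of 0.02 ± 0.44 (SE) (exact permutation p = 0.9).

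Control replicate 2 was highest for both kinases, so their ratio within a library, which does not depend on normalization, was compared as well. Lats2 made up 41.2, 36.2 and 44.0% of the counts of the pair in controls and 49.0, 62.6 and 47.8% in treated libraries. All 3 treated shares lay above all 3 control shares, with means of 40.5 ± 3.95% and 53.1 ± 8.20% (SD, n = 3), a difference of 12.6 percentage points. The exact permutation p was 0.1, the smallest possible with 3 against 3, and 0.7 after adjustment over the 7 shares compared. Counting error alone was wide enough for neighbouring libraries to overlap, from 37.7 to 50.5% in control replicate 3 and from 40.2 to 55.5% in AMD3100 replicate 3 (95% Wilson intervals). Without AMD3100 replicate 2 the difference was 7.92 percentage points. From the last 300 bases of the annotated transcript, 11 stretches of 50 bases were cut for each gene. Of these, 1 also matched another place in the genome for Lats2 (9.09%) and 0 for each of the other 9 genes.

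**Figure D2:**
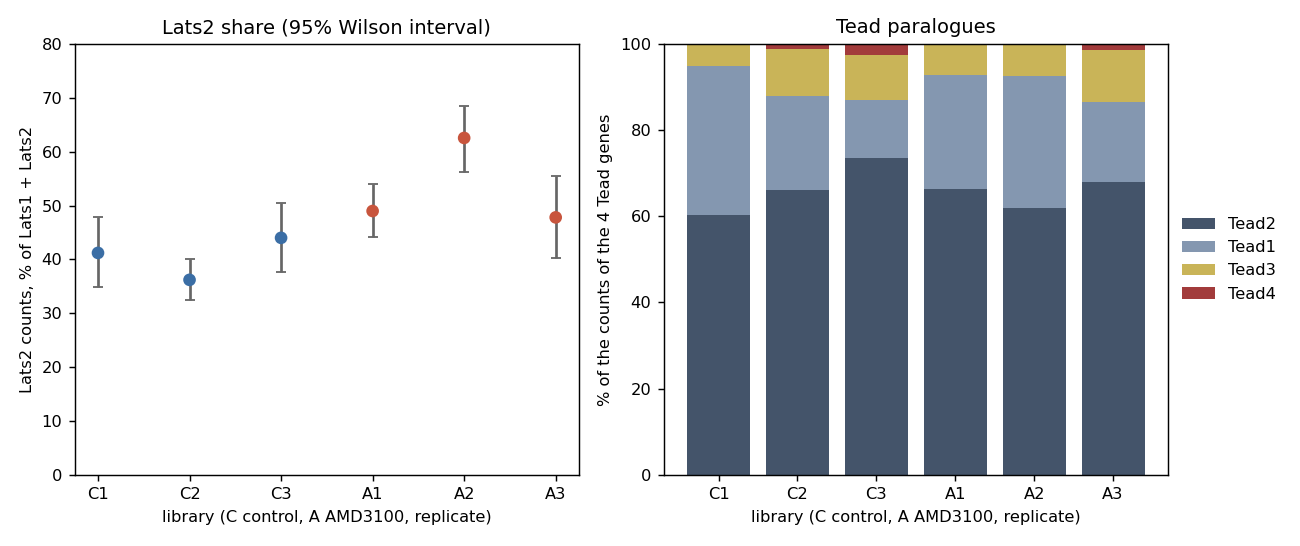
Share of Lats2 in the summed Lats1 and Lats2 counts of each library (left, percent, bars are 95% Wilson intervals of counting error) and make-up of the summed counts of the 4 Tead genes (right, percent). Lats2 shares run from 36.2 to 44.0% in controls (blue) and from 47.8 to 62.6% in AMD3100 libraries (red), and Tead2 makes up 60.2 to 73.5% of Tead counts in all 6 libraries.

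YAP and TAZ are paralogous co-activators without a DNA-binding domain of their own. Yap1 (chr9:7931999-8004638) stood at 106, 100 and 94.1 CPM in the control libraries and at 87.4, 110 and 72.6 CPM in the AMD3100 libraries. The controls were tightly grouped and the treated values lay on either side of them, with a log2 fold change of -0.15 ± 0.28 (SE) (exact permutation p = 0.5). The 95% interval, -0.78 to 0.48, leaves room for a 1.5-fold decrease but not for one as large as the estimate for Ctgf. Wwtr1 (chr3:57455644-57575910) stood at 75.4, 105 and 33.5 CPM in controls and at 61.3, 71.4 and 36.3 CPM in treated libraries. Both replicate 3 libraries were far below the rest of their groups, and the log2 fold change between groups was -0.34 ± 0.44 (SE) (exact permutation p = 0.7). Wwtr1 made up 26.3 to 51.0% of the summed Yap1 and Wwtr1 counts, with means of 39.7 ± 12.5% in controls and 38.0 ± 4.10% in treated libraries (SD, n = 3, exact permutation p = 0.8).

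TEAD factors bind the DNA and carry YAP or TAZ to it. Tead2 (chr7:45215792-45233468), the form most associated with embryonic tissue, was the most abundant of the 10 genes by mean level, at 125, 111 and 104 CPM in controls and 105, 93.6 and 83.4 CPM in treated libraries. It was lower in the treated library of all 3 same-numbered pairs, yet the highest treated value just overlapped the lowest control, and the log2 fold change was -0.27 ± 0.27 (SE) (exact permutation p = 0.2). Cd37 overlaps its 3′ end from the opposite strand in the annotation, and whether the counting used strand is not given in the sources used here, so that reads of both could not be told apart if it did not. Tead1 (chr7:112679356-112906784) stood at 72.3, 36.6 and 19.1 CPM in controls and at 42.1, 46.4 and 22.96 CPM in treated libraries, with a log2 fold change of -0.20 ± 0.49 (SE) (exact permutation p = 1). Its spread among controls was wider than any difference between groups, and, as for Wwtr1, replicate 3 was the lowest library of each group.

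Tead3 (chr17:28331671-28350805) stood at 10.4, 18.3 and 14.9 CPM in controls and at 11.3, 11.2 and 14.6 CPM in treated libraries, with a log2 fold change of -0.23 ± 0.39 (SE) (exact permutation p = 0.6). Tead4 (chr6:128227143-128300813), the form known from trophoblast and muscle, was at 0, 1.97 and 3.69 CPM in controls and at 0, 0 and 1.84 CPM in treated libraries. It was thus undetected in 3 libraries, where levels up to 0.263, 0.173 and 0.277 CPM are allowed, and was highest in the replicate 3 library of each group. Its log2 fold change was -1.65 ± 2.16 (SE) (exact permutation p = 0.4). It was -0.69 without control replicate 3, -2.72 with the replicate number as a block and -7.60 without AMD3100 replicate 3. In that last fit no treated library held a count of Tead4, so the value is not a measured fold change. In order of mean control level the 10 genes ran Tead2, Yap1, Wwtr1, Tead1, Lats1, Tead3, Lats2, Ctgf, Cyr61 and Tead4, and the control ranges of neighbours in that order overlapped for every pair except Ctgf and Cyr61, where the lowest Ctgf value (5.68 CPM) was above the highest Cyr61 value (4.88 CPM).

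Wwtr1 and Tead1 were thus lowest in the tube numbered 3 of both groups. The mesenchyme markers (8 of 8 tested, 0 called) summed to 3930, 3923 and 1739 CPM in controls and 3852, 3846 and 1496 CPM in treated libraries, and Col3a1, a fibrillar collagen and the most abundant of them, stood at 1403, 1421 and 406 CPM in controls and at 1409, 1393 and 415 CPM in treated libraries. The sum was mostly that of 3 collagen genes, and the other 5 differed. Pdgfra, at 84.4, 105 and 70.1 CPM in controls and 73.4, 101 and 60.9 CPM in treated libraries, was lowest in the replicate 3 tubes, and so was Vim, an intermediate filament, at 338, 338 and 325 against 299, 327 and 208 CPM. Twist1, a transcription factor, stood at 23.6, 15.4 and 14.7 against 15.7, 6.08 and 7.37 CPM. Osr1, a transcription factor, stood at 184, 172 and 170 CPM in controls and at 148, 140 and 161 CPM in treated libraries. Pdgfrb, a growth factor receptor, stood at 10.6, 14.0 and 35.8 CPM in controls and at 19.4, 26.1 and 19.6 CPM in treated libraries, and like Osr1 it was not lowest in both replicate 3 tubes. Of the epithelial markers, the keratins Krt5 and Krt8 were lowest in the replicate 3 tubes, as were Krt14 and Epcam. Krt5 stood at 99.1, 99.4 and 18.5 against 107, 86.7 and 28.1 CPM, and Krt8 at 64.1, 77.1 and 16.7 against 76.7, 61.0 and 17.1 CPM. The other epithelial markers were lowest in control replicate 3 but not in AMD3100 replicate 3. Krt18, also a keratin, stood at 94.0, 74.6 and 54.0 against 75.1, 91.1 and 90.0 CPM. Trp63 stood at 11.9, 11.1 and 5.78 against 6.91, 9.03 and 11.5 CPM, and Cdh1 at 337, 302 and 211 against 344, 394 and 507 CPM. The skeletal muscle markers (6 of 6 tested, 0 called) summed to 233, 229 and 1030 CPM in controls and 154, 112 and 1299 CPM in treated libraries, led by Myog, a myogenic transcription factor, at 41.1, 40.0 and 521 against 13.9, 9.95 and 485 CPM, with Myod1 at 0 in AMD3100 replicate 2. Replicate 3 libraries therefore held less collagen, Krt5, Krt8 and Krt14 RNA and more muscle RNA, together with less Wwtr1 and Tead1 RNA. Yap1 and Tead2 were also lowest in the replicate 3 library of each group by smaller margins. The part of tissue make-up in these levels was not tested. With replicates 1 and 2 alone, Ctgf remained the 1 member called. Of the 9 members that could be fitted, 4 had groups that did not overlap, a share near that of all genes in this setting (37.1%).

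**Figure D3:**
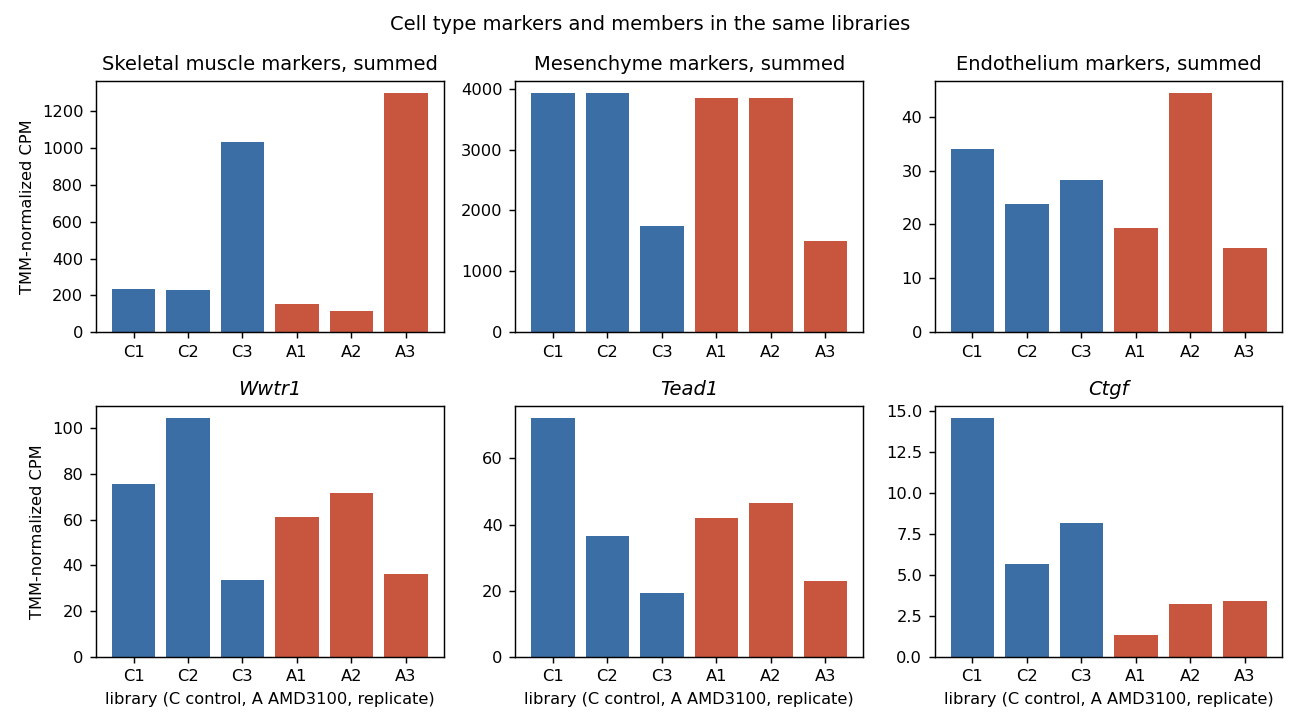
Summed TMM-normalized CPM of skeletal muscle, mesenchyme and endothelium markers (upper row) and CPM of Wwtr1, Tead1 and Ctgf (lower row) in the control (C, blue) and AMD3100 (A, red) libraries, numbered by replicate. Libraries C3 and A3 have the highest muscle sums (1030 and 1299 CPM) and the lowest mesenchyme sums (mostly collagen) and Wwtr1 and Tead1 levels, whereas Ctgf is low in all 3 AMD3100 libraries.

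**Figure D4:**
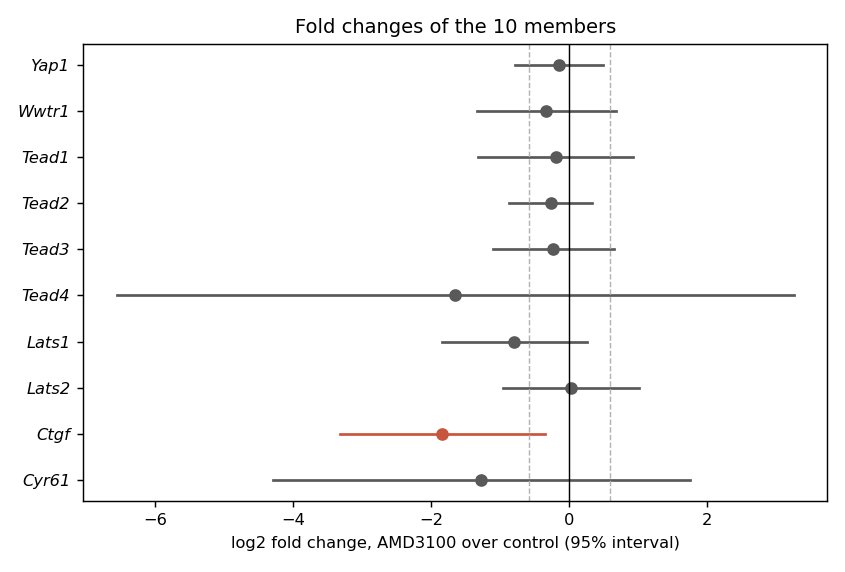
Log2 fold change of AMD3100 over control (points, horizontal axis) with 95% intervals (lines) from the edgeR fit for the 10 genes, where dashed lines mark a 1.5-fold change. The interval of Ctgf, -3.32 to -0.36, is the only one that leaves out 0, and that of Tead4 is the widest.

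Upstream of LATS, the cascade was read from 13 genes, of which 12 were tested and 0 were called in either direction, with 6 log2 fold changes above and 6 below 0 and a median of -0.00. Stk3 and Stk4, the MST kinases that activate LATS, had log2 fold changes of 0.27 and -0.18, and Stk3 was highest in both replicate 3 libraries, at 52.0 and 72.5 CPM against 13.8 to 23.1 CPM in the others. Nf2, the scaffold that brings the cascade to the membrane, was steady at 95.9, 95.5 and 94.6 CPM in controls and lay at 117, 78.5 and 94.3 CPM in treated libraries, a log2 fold change of 0.02 ± 0.28 (SE). Sav1, the scaffold of the MST kinases, had a log2 fold change of -0.29. Its level is uncertain, because 54.5% of the stretches cut from its 3′ end also matched another place in the genome. The LATS co-activators differed in detection, since Mob1b was counted in 4 of 6 libraries and had a log2 fold change of 1.57 ± 1.79 (SE), or 0.0575 without AMD3100 replicate 1, whereas Mob1a had at most 8 counts in any library and was not tested. Wwc1, which encodes the scaffold KIBRA, had the lowest p of the list, with 2.98, 3.06 and 0 CPM in controls and 1.04, 0 and 0 CPM in treated libraries. Its relative Wwc2 and the kinase gene Taok3 had log2 fold changes of 0.25 and 0.17.

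The 19 genes of upstream polarity and adhesion proteins and YAP/TAZ partners were all tested, with 0 called, 8 log2 fold changes above and 11 below 0 and a median of -0.06. The lowest p-values were those of Wtip, a LIM-domain protein of the Ajuba family (log2 fold change -0.36), of the polarity scaffold Dlg5 (0.43), of Sike1, a member of a phosphatase complex that counters the MST kinases (-0.52), and of the atypical cadherin Fat4 (-0.44). Vgll4, which competes with YAP for TEAD and was picked here after its values were seen, stood at 36.2, 36.3 and 2.09 CPM in controls and at 38.4, 33.4 and 7.98 CPM in treated libraries. Its low values were again those of the replicate 3 tubes of both groups.

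A list of 19 further YAP/TAZ targets, which does not contain Ctgf, Cyr61 or Lats2, showed no common direction. Of the 17 tested, 2 were called, both lower in the AMD3100 group (1.28% of all genes were called lower), and 0 were called higher, while 11 log2 fold changes were above and 6 below 0, with a median of 0.08. The called genes were Igfbp3, which encodes a binding protein of insulin-like growth factors, and Gadd45a, a gene induced by DNA damage and stress. Igfbp3 is also drawn in a figure of the study among genes selected from these same libraries, so that its direction is no independent evidence. It stood at 36.9, 26.7 and 38.3 CPM in controls and at 13.4, 24.1 and 12.6 CPM in treated libraries. All treated values lay below all controls, narrowly so for AMD3100 replicate 2, and the log2 fold change was -1.02 ± 0.37 (SE). It lost the call without control replicate 1 (-0.97), control replicate 3 (-0.93), AMD3100 replicate 1 (-0.89) or AMD3100 replicate 3 (-0.88), and with replicates 1 and 2 alone (-0.78).

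Gadd45a stood at 14.1, 7.21 and 4.49 CPM in controls and at 2.82, 2.12 and 4.30 CPM in treated libraries, where the closest values of the groups nearly touched. Its log2 fold change of -1.48 ± 0.65 (SE) was close to the threshold on p. With the replicate number as a block it was -1.41 and not called, so that 1 of the 17 targets was called, beside 4.39% of all genes. It also lost the call without control replicate 1 (-0.93), control replicate 2 (-1.59), AMD3100 replicate 1 (-1.42) or AMD3100 replicate 2 (-1.27), and was -1.37 with the study's procedure. The third of the 17 tested targets with groups that did not overlap (7.44% of all genes) was Crim1, a transmembrane protein that binds bone morphogenetic proteins, at 15.0, 24.6 and 21.5 CPM in controls and 13.9, 9.86 and 12.8 CPM in treated libraries. Its log2 fold change was -0.74 ± 0.37 (SE), and without control replicate 1 it was -0.92 and past both thresholds. Fez2 overlaps the 3′ end of Crim1 from the opposite strand in the annotation. Amotl2, which encodes an angiomotin-like protein that binds YAP, stood at 21.6, 7.58 and 6.58 CPM in controls and at 6.39, 3.87 and 6.75 CPM in treated libraries, with control replicate 1 far above the rest, as for Ctgf. Its log2 fold change was -1.07 ± 0.59 (SE), and -0.32 without control replicate 1. With replicates 1 and 2 alone it was -1.50 and past both thresholds. The remaining tested targets ran from -1.05 for Nuak2 to 0.68 for Nt5e, and included Ankrd1, a classical YAP target, at 0.27 ± 1.12 (SE) and Axl, a receptor tyrosine kinase, at 0.25 ± 0.46 (SE). F3 and Foxf2 were too low to be tested.

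**Figure D5:**
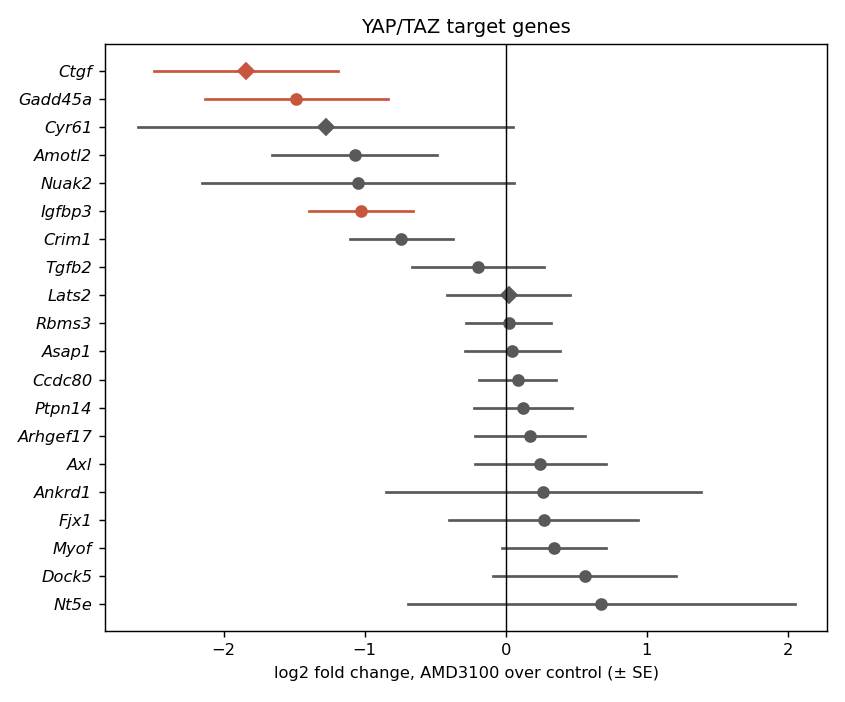
Log2 fold change of AMD3100 over control (points) ± SE (lines) for the 17 tested genes of the target list (circles) with Ctgf, Cyr61 and Lats2 (diamonds), ordered by value, with genes past both thresholds in red. Ctgf, Gadd45a and Igfbp3 are past both thresholds and 12 of the 20 genes lie above 0.

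Ctgf and Cyr61 are also known as immediate early genes, which respond within minutes to serum, stretch and handling, so that class was read beside them. Of 17 such genes 14 were tested and 1 was called, lower in the AMD3100 group (1.28% of all genes), with 8 log2 fold changes above and 6 below 0 and a median of 0.03. Their summed level was 240, 203 and 275 CPM in controls and 195, 213 and 283 CPM in treated libraries, groups that overlapped throughout, and Jun, the most abundant, stood at 101, 72.3 and 80.8 against 78.2, 97.8 and 89.3 CPM. The called gene was Nr4a1, an orphan nuclear receptor, at 3.15, 5.90 and 1.30 CPM in controls and 0.806, 0.369 and 0.491 CPM in treated libraries. Its log2 fold change was -2.60 ± 1.13 (SE), and it passed the threshold without control replicate 3 but not when any other library was left out, with values from -2.98 without AMD3100 replicate 1 to -1.97 without control replicate 2. With the replicate number as a block it was -2.41 and not called. Ier2, another early response gene, had a log2 fold change of -0.79 and was called under the block (-0.93), as was Egr1 (-0.61, and -0.47 without the block), named here for this call, so that the block called 2 genes of the list, beside 4.39% of all genes. Junb, a subunit of AP-1, and Ier3 had log2 fold changes of -0.53 and 0.45.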

How the data were processed

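The deposited tables list, for every library, the authors' counts of reads by gene symbol, made from 50 bp single reads of a 3′ mRNA kit, without normalization or a stated use of molecular identifiers. The submitters' processing notes name Bowtie2, edgeR and the build mm10, while the counter and the annotation are not given in the sources used here. Each table held 23282 lines, and 22 lines that repeated a symbol with the same counts were left out. Among the 23282 lines, 79 carried a repeated symbol. Those not left out were kept, and each kept line is called a gene here.

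Counts were fitted with edgeR 4.0.16 in R 4.3.3 (TMM, filterByExpr, glmQLFit, glmQLFTest, condition as the only term, Benjamini-Hochberg adjustment over all tested genes). The code had first been run on simulated counts with far less spread between libraries than these data and no difference in tissue content. That run does not show how the fit behaves on these data. Standard errors (SE) were the size of the coefficient divided by the root of its quasi-likelihood F. Shares of paralogues were compared by exact two-sided permutation tests. Alternatives were DESeq2 1.42.0, limma 3.58.1 with voom, upper quartile normalization, other filters, Rn45s left out, a version of the study's procedure (quantile normalization of log2(count + 1), a choice made here since the study states neither pseudocount nor filter, and an equal-variance test), single libraries left out, replicates 1 and 2 alone, and the replicate number as a block. The labels of both groups share replicate numbers. Deviations from the group means correlated at 0.185, 0.171 and 0.584 across genes within the same-numbered pairs. However, control replicate 2 correlated at 0.198 with AMD3100 replicate 1, and control replicate 1 at 0.146 with AMD3100 replicate 2. These values do not tell the numbers 1 and 2 apart, and whether the tubes were paired is not known. The main fit and the permutation tests therefore took the tubes as unpaired, with the block as an alternative.

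The members, the lists and the tests were chosen with earlier results of these data known. Genes named are the 10 members, Stk3, Stk4, Sav1, Mob1a, Mob1b and Nf2, the 4 genes of lowest p in each pathway list, and the most abundant gene and a few set markers of each cell type list. Other genes were named after their values were seen. Overlaps at 3′ ends were read from an NCBIM37 annotation, which is not the build of the counts. Stretches were matched to the genome of that build with minimap2 2.31-r1302, and whether a second match lay in a gene was not checked. Gene positions and promoters are those of RefSeq on GRCm38.p6, matched by symbol. RefSeq promoters of Ctgf, Tead1 and Tead4 were not used here.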

Additional observations from a re-analysis of the deposited data

How the results depend on the processing

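The replicate block moved the genes past both thresholds from 228 to 598, replicates 1 and 2 alone gave 613 and a version of the study's procedure 429, and leaving out single libraries gave 163 to 547 (547 without control replicate 3, 451 without AMD3100 replicate 3). Genes with an adjusted p below 0.05 numbered 0 in the edgeR fit (228 passed both unadjusted thresholds), 5 with DESeq2 and 3 with the replicate block. Members past both thresholds were 0 or 1 when a library was left out, and members whose groups did not overlap were 2 with DESeq2 (7.45% of all genes) and without a filter (6.43%), 4 with replicates 1 and 2 alone (37.1%), and 1 to 5 when a library was left out (1 without control replicate 2, beside 13.6%, and 5 without control replicate 1, beside 13.9%). Targets past both thresholds were 1 with quantile normalization and limma-voom, without a filter, with the replicate block and with the study's procedure, and 0 to 1 when a library was left out. Immediate early genes past both thresholds were 0 with limma-voom, without a filter, with at least 10 counts in every library and with replicates 1 and 2 alone, 2 with the replicate block, and 0 to 2 when a library was left out. Among the members and the pathway, target and immediate early lists, the replicate block changed only the calls of Gadd45a, Nr4a1, Ier2 and Egr1. Cell type markers were not followed under it.

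Log2 fold changes that changed sign were those of Nf2 with limma-voom (-0.0145), of Stk3 with replicates 1 and 2 alone (-0.0905) and, when a library was left out, of Wwtr1 (-0.67 to 0.0506), Tead1 (-0.55 to 0.41), Lats2 (-0.19 to 0.38), Stk3 (-0.78 to 0.97), Stk4 (-0.50 to 0.0653), Sav1 (-1.08 to 0.0406) and Nf2 (-0.14 to 0.15). The cause was not tested. Signs were followed for the members, Stk3, Stk4, Sav1, Mob1a, Mob1b, Nf2 and the genes of lowest p in each pathway list. They were not followed for the other named genes, cell type markers among them. The log2 fold change of Ctgf was below 0 under all alternatives, from -2.10 to -1.39 when a library was left out. Of 147 values of members under alternatives, 139 kept their direction and their side of the threshold, 2 lost the threshold and 6 changed sign. With at least 10 counts in every library, Tead4, Cyr61, Mob1b, Wwc1 and Nr4a1 could not be fitted, nor could Tead4 with replicates 1 and 2 alone. With 3 libraries a group, low counts of Ctgf, Cyr61 and Tead4 and tubes of unlike tissue content limit what these data can resolve.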

Other observations

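Other cell types of the gland were read from markers beside the Hippo genes. Epithelial markers (7 of 7 tested, 0 called, median log2 fold change 0.03) summed to 794, 768 and 404 CPM in controls and 816, 843 and 786 CPM in AMD3100 libraries, and Cdh1, which encodes the adhesion molecule E-cadherin and is the most abundant of them and also drawn in a figure of the study, stood at 337, 302 and 211 against 344, 394 and 507 CPM. The sum in AMD3100 replicate 3 was thus mostly Cdh1, while Krt5, Krt8, Krt14 and Epcam were lowest in that library among the AMD3100 group. Krt18, at 75.1, 91.1 and 90.0 CPM in AMD3100 libraries, was not lowest there, and Trp63, at 6.91, 9.03 and 11.5 CPM, was highest there. The Cdh1 groups did not overlap, with a log2 fold change of 0.55 ± 0.31 (SE), short of the thresholds. Mesenchyme markers had a median log2 fold change of -0.13, endothelium markers -0.56 and skeletal muscle markers 0.29. Osr1, a transcription factor of the gland mesenchyme, stood at 184, 172 and 170 CPM in controls and at 148, 140 and 161 CPM in AMD3100 libraries, and its groups did not overlap either (log2 fold change -0.23 ± 0.26, SE).

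Parasympathetic neuron markers (4 of 4 tested, 0 called, median 0.06) summed to 273, 209 and 283 CPM in controls and 224, 185 and 441 CPM in AMD3100 libraries. They were led by Tubb3, a neuronal tubulin for which 45.5% of the stretches cut from the 3′ end also matched another place in the genome. Macrophage markers (4 of 4 tested, 0 called, median 0.13) summed to 85.2, 64.8 and 105 against 71.2, 88.9 and 114 CPM, led by Cx3cr1, a chemokine receptor. Red cell markers (6 of 6 tested, 0 called, median -0.44) summed to 4851, 13827 and 5789 against 4808, 7379 and 7525 CPM. They were led by Hba-a1, a haemoglobin chain whose level is uncertain, since 81.8% of such stretches also matched another place in the genome. The red cell sum was highest in control replicate 2, the library with the highest Lats1, Lats2, Wwtr1, Tead3 and Cyr61 levels. Rn45s, the ribosomal RNA precursor, took 32.4, 27.5 and 20.2% of counts in controls and 16.2, 32.5 and 22.7% in AMD3100 libraries.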
